A study of Mus musculus with 8 samples.

Results

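The 8 genes *Samd4*, *Ccnb1ip1*, *Parp2*, *Tep1*, *Osgep*, *Apex1*, *Ang* and *Rnase4* lie on mouse chromosome 14 and were examined because their signal had been seen to vary between individual embryos. They were found on the array by matching the RefSeq accession of each probe to the gene, which made them 8 of 20660 named genes on the array, with 9 of its 55681 distinct probes. *Osgep* had 2 probes and each of the other 7 genes had 1. All 9 probes were among the 29732 probes that passed the filter on dim signals.

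Gene expression was measured in 8 individual mouse embryos at embryonic day (E) 8.5, each on its own single-colour Agilent array, to ask whether reduced function of EED in the father altered transcription in the offspring. EED is a core subunit of PRC2, the complex that methylates histone H3 at lysine 27. The allele was the hypomorphic Eedl7Rn5-1989SB, carried on a mixed C57bl6/129 background. All 8 embryos were heterozygous for it and all had a wild-type mother, so that the control embryos carried the allele too. In 4 embryos the father was homozygous (*Eed* hypo/hypo, HOM father) and in 4 it was heterozygous (*Eed* hypo/wt, HET father). HOM father replicates 1 and 2 were female and replicates 3 and 4 were male, and HET father replicates 1 and 3 were female and replicates 2 and 4 were male. There were thus 2 embryos for each father and sex. The study had fewer sires than embryos and the labels do not name them, so that some embryos shared a father. The genotype of each embryo along chromosome 14 was not analysed here.

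The arrays of HOM father embryos were on 1 slide and those of HET father embryos on another, so that father and slide cannot be told apart. Sex was balanced on both slides. The identifiers of both HOM father males begin with the same number, 188, and those of HET father replicates 1 and 2 with 184, and the labels do not say what the number stands for. Between 51.9% and 60.8% of spots were well above background on each array. All 8 markers of the embryo proper (*T*, *Tbx6*, *Sox2*, *Meox1*, *Nkx2-5*, *Foxa2*, *Kdr* and *Hbb-bh1*) and all 5 of yolk sac endoderm were well above background on all 8 arrays. Of 5 trophoblast markers 2 were, and of 4 decidua markers 3 were. The log2 of the summed trophoblast signal was 3.21 to 3.28 in HOM father males, 3.84 to 4.62 in HET father males and 3.08 to 4.54 in females. The 3 tested trophoblast markers differed in sign, with HOM minus HET father differences of -1.07 for *Gcm1*, the brightest, 1.88 for *Prl3d1* and 0.59 for *Psg17*. The log2 of the summed decidua signal was 3.42 to 4.97 in HOM father males, 3.11 to 3.68 in HET father males and 2.97 to 4.66 in females, and the part of these tissues in the values below was not tested.

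The region brings together genes of unrelated function. *Ang* encodes angiogenin and *Rnase4* a related secreted ribonuclease, both of the RNase A superfamily, and they are known to share promoters and leading exons that are spliced to separate coding exons. *Apex1* encodes the main endonuclease for abasic sites in base excision repair, and *Parp2* a polymerase that builds poly(ADP-ribose) at DNA breaks. *Osgep* encodes a subunit of the KEOPS complex, which modifies transfer RNAs, and *Tep1* a protein of telomerase and of the vault particle. *Ccnb1ip1*, also called HEI10, encodes a ubiquitin ligase needed for meiotic crossovers. *Samd4* encodes the RNA-binding protein Smaug1, which represses its target messages. In the RefSeq order of the chromosome *Samd4* came first and *Ccnb1ip1* lay 95 genes further. *Parp2*, *Tep1*, *Osgep* and *Apex1* followed *Ccnb1ip1* within 8 genes, and *Ang* and its direct neighbour *Rnase4* lay 19 genes beyond *Apex1*.

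The start regions of the neighbouring pairs are shown because those pairs set a shared sequence beside the measured levels. The windows are the 250 bases before a transcript start, from RefSeq on build GRCm38.p6, and 7 of the 8 genes had one. Capitals mark the CCAAT box (letters CCAAT), the GC box (letters GGGCGG), the TATA box (letters TATAAA) and the E-box (letters CACGTG) on either strand, and no match overlapped another. Of all 32851 windows of this length 33.8% held CCAAT, 32.7% GGGCGG, 12.4% TATAAA and 6.02% CACGTG. *Rnase4* had 2 windows, and the one that *Ang* had was identical to the first of these in position and sequence (chr14:51090827-51091076, plus strand). The second window of *Rnase4* (chr14:51095750-51095999, plus strand) held none of the motifs.
Rnase4 and Ang, shared start: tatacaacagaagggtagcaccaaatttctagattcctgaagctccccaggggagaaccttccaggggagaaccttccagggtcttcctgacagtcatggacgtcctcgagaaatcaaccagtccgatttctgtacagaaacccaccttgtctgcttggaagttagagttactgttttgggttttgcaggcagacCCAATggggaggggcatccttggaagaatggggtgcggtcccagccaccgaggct
Rnase4, second start: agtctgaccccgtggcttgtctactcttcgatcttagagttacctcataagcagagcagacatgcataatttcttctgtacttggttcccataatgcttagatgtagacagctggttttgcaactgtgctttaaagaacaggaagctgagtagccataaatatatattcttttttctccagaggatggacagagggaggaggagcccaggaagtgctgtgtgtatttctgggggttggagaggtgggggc

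*Osgep* and *Apex1* are transcribed away from each other, and only 55 bases separated their starts (chr14:50924894-50924948, plus strand, *Apex1* reading to the right). This stretch held 1 CCAAT, 1 CACGTG and 1 GGGCGG.
Osgep and Apex1, between the starts: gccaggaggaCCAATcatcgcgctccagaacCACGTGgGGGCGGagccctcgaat

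Signals are given as log2 values relative to the 75th percentile of the array, so that 0 is that percentile. The widest spread was that of *Samd4* (probe A_66_P130813). The HOM father females had -2.17 and -2.61, the HOM father males -6.26 and -6.99, the HET father females -2.39 and -2.72 and the HET father males -1.38 and -1.52. The HOM father males were thus the lowest, the HET father males the highest, and the 4 females lay between them without a gap between fathers. The sorted values left an empty interval of 3.54 between the HOM father males and the next embryo. On neither HOM father male array was the probe well above background, so the size of the difference between the males is not established. The HET father males were 29.6-fold higher when signals below the dimmest well above background on their array were raised to it. With a different background correction (normexp) the fitted log2 difference, HOM minus HET father males, was -2.66.

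*Ccnb1ip1* (probe A_55_P1986208) had the same kind of order turned around. The HOM father females had -2.04 and -1.85, the HOM father males both -1.30, the HET father females -1.96 and -2.0 and the HET father males -5.57 and -5.24. Here the HET father males were the low pair, with an empty interval of 3.21 above them, and the 4 females spanned only 0.19. The probe was not well above background in either HET father male, so the size of the difference between the males is not established. Taken from the signals as they stood, the HOM father males were 17.2-fold higher. The fitted log2 difference between the males was 4.11, and 2.57 with a different background correction (normexp).

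*Ang* and *Rnase4* were above background on all 8 arrays and their levels ran in opposite directions. *Ang* (A_51_P391159) had -0.06 and -0.22 in HOM father females, -0.87 and -0.91 in HOM father males, 0.06 and 0.19 in HET father females and 0.59 and 0.52 in HET father males. *Rnase4* (A_51_P237383) had 2.19 and 2.07, 2.68 and 2.60, 2.16 and 2.25, and 1.18 and 1.24 in the same order. In both genes the 4 females lay between the males of the 2 fathers, but HOM father males were the lowest for *Ang* and the highest for *Rnase4*, although the RefSeq models share the start printed above. Between the males the difference was 2.72-fold for *Ang* and 2.69-fold for *Rnase4*. Under scaling to the array median the *Rnase4* order was no longer complete, while that of *Ang* was kept.

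**Figure D1:**
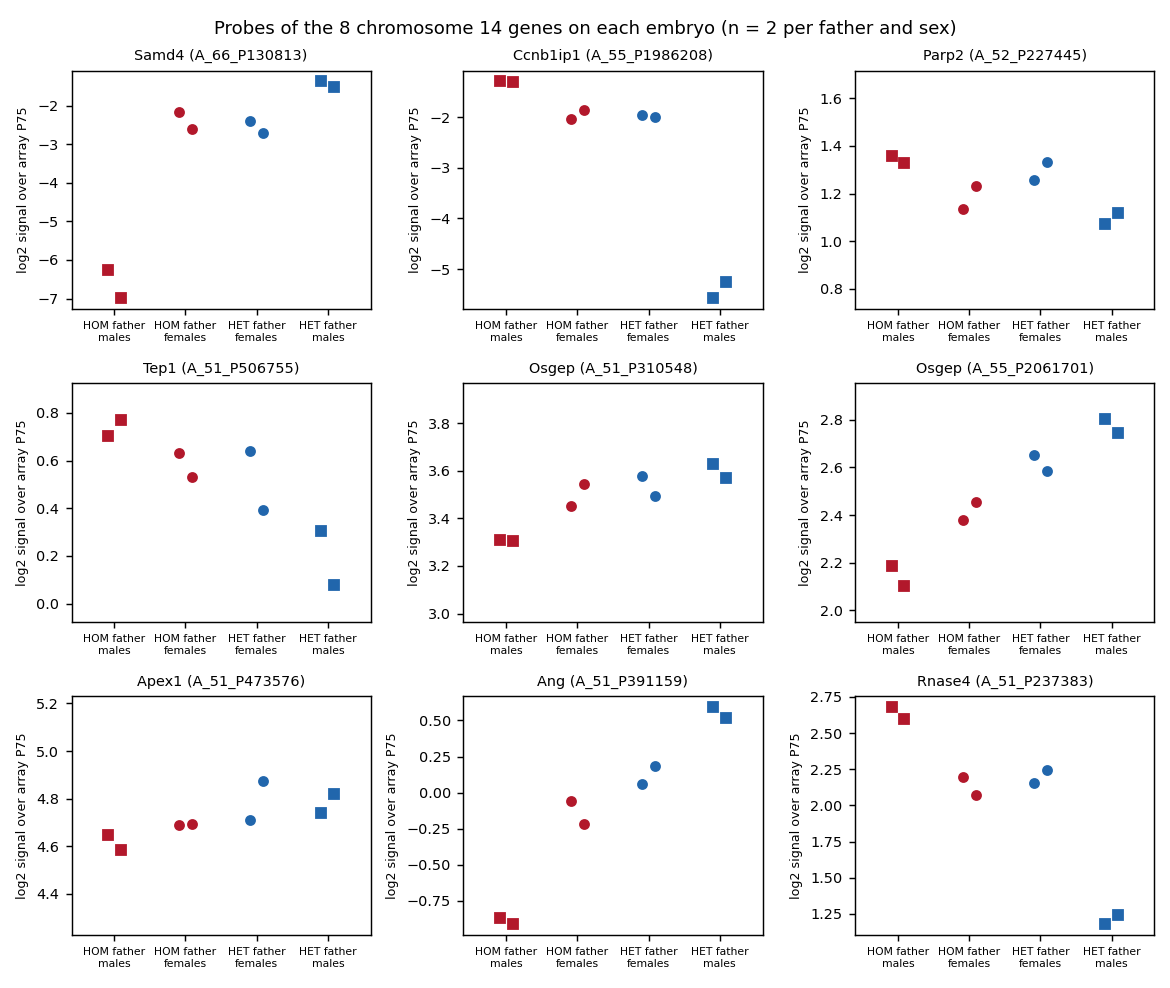
Log2 signal over the 75th percentile of the array (y axis, own scale in each panel) for the 9 probes in males (squares) and females (circles) of HOM fathers (red) and HET fathers (blue), 1 point per embryo. *Samd4* and *Ang* were lowest and *Ccnb1ip1* and *Rnase4* highest in HOM father males, while *Apex1* and *Parp2* spanned no more than 0.29.

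The other 4 genes varied less, and not all of them merit the description of varying between embryos. *Tep1* (A_51_P506755) had 0.63 and 0.53 in HOM father females, 0.70 and 0.77 in HOM father males, 0.64 and 0.39 in HET father females and 0.30 and 0.08 in HET father males. It followed the order of *Ccnb1ip1*, with an overall range of 0.69, but not under median scaling. *Parp2* (A_52_P227445) had 1.14 and 1.23, 1.36 and 1.33, 1.26 and 1.33, and 1.07 and 1.12 in the same order. Its HET father males were the lowest, but 1 HET father female lay between the HOM father males, and the whole range was 0.28. *Apex1* (A_51_P473576) had 4.69 and 4.69, 4.65 and 4.58, 4.71 and 4.88, and 4.74 and 4.82, so that the HOM father males were the lowest and 1 HET father female the highest.

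The probes of *Osgep* agreed in order at the low end and differed in size. Probe A_51_P310548 had 3.45 and 3.55 in HOM father females, 3.31 and 3.30 in HOM father males, 3.58 and 3.49 in HET father females and 3.63 and 3.57 in HET father males. Probe A_55_P2061701 had 2.38 and 2.46, 2.18 and 2.10, 2.65 and 2.58, and 2.80 and 2.75 in the same order. In both the HOM father males were the lowest pair, and the difference between the males of the 2 fathers was -0.29 for the first probe and -0.63 for the second. The first probe read 1.00 ± 0.14 (SD, n = 8 embryos) above the second, and 4 of the 8 embryos held the same rank on both. The HOM father males were also the lowest for *Apex1*, whose start is adjacent to that of *Osgep*. There the fitted difference between the males was only -0.16 (SE 0.08, adjusted p = 0.291 by limma). The part of the adjacent starts was not tested.

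Discrete levels were looked for as the largest empty interval between neighbouring values once the 8 embryos were sorted. An interval of at least 1 was found in 2 of the 9 probes, compared with 4.13% of all tested probes. These were *Samd4* and *Ccnb1ip1*, the only ones of the 9 with an SD over the 8 arrays above the 95th percentile of all tested probes (0.67). Both largest intervals bordered arrays on which the probe was not well above background. The largest intervals were 0.83 for *Rnase4*, 0.65 for *Ang* and 0.23 for *Tep1*, compared with a median of 0.17 over all tested probes. Those of *Parp2* (0.096), *Osgep* A_51_P310548 (0.14) and *Apex1* (0.082) lay below that median. As the genes were picked for their spread over these same arrays, these counts are a description.

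The shared feature was an order rather than a step. In 6 of the 9 probes all 4 females lay between the males of HOM fathers and the males of HET fathers, an order seen in 1.4% of tested probes and sought after the values had been seen. The HOM father males were the highest for *Ccnb1ip1*, *Rnase4* and *Tep1* and the lowest for *Samd4*, *Ang* and *Osgep* A_55_P2061701. Of all tested probes 0.724% had the first direction and 0.68% the second. With array medians the order held in 4 of the 9 probes, *Rnase4* and *Tep1* being the exceptions, and with quantile normalisation in 7, *Parp2* being added. The order coincided with the combination of father and sex, and a difference between these 4 groups cannot be told apart from a difference between litters or sires, which the labels do not name. The identifier numbers did not follow the order throughout, as HET father replicates 1 and 2 share 184 and had -1.96 and -5.57 for *Ccnb1ip1* and 2.16 and 1.18 for *Rnase4*. What the number stands for is not given, so the part of litter or sire was not tested.

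The 4 genes of widest spread were also set out on the linear scale. Their females lay between the male groups by the order already described, so the ratios to the male midpoint are a description. *Ang* had a mean linear signal of 0.54 in HOM father males, 1.00 ± 0.12 (SD, n = 4) in females and 1.47 in HET father males, where 1 is the 75th percentile of the array, and the females were 0.995 times the midpoint of the male groups. *Rnase4* had 6.23, 4.50 ± 0.23 and 2.31, with a ratio of 1.05, or 1.17 under median scaling. *Samd4* had 0.0105, 0.182 ± 0.031 and 0.367, with a ratio of 0.965. *Ccnb1ip1* had 0.406, 0.257 ± 0.015 and 0.0237, with a ratio of 1.19 that came to 1.37 under median scaling. For *Samd4* and *Ccnb1ip1* the low male group was not well above background, so that these ratios rest on a value whose size is not established. The error that the scanner software gave for a spot reached 96.5% of the signal for *Samd4* and 33.2% for *Ccnb1ip1* on their dimmest arrays and was between 10% and 10.1% for the other 7 probes.

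**Figure D2:**
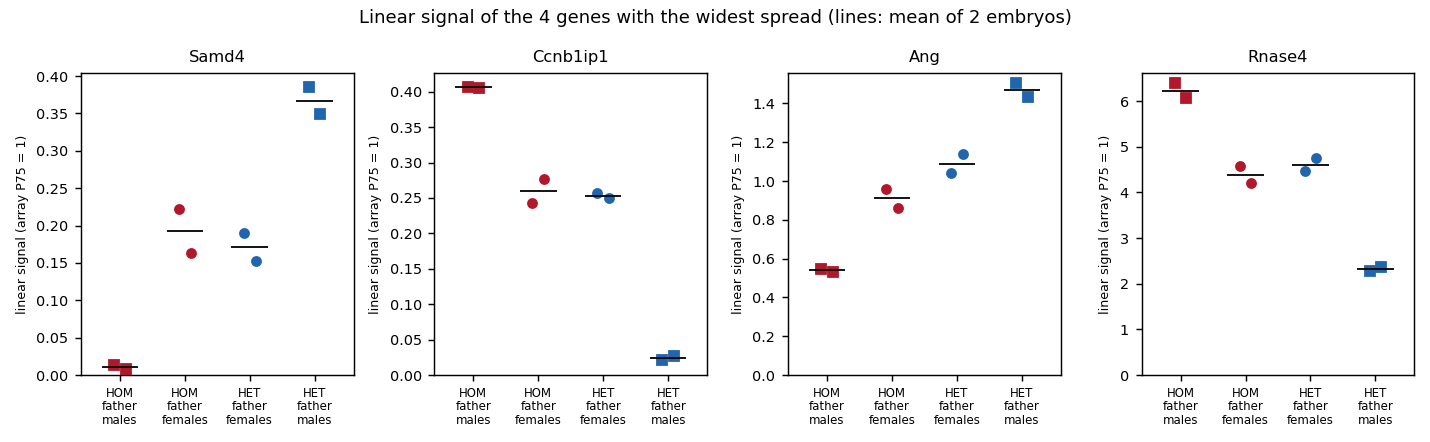
Linear signal, with the 75th percentile of the array set to 1 (y axis, from 0), for *Samd4*, *Ccnb1ip1*, *Ang* and *Rnase4*, with 1 point per embryo and a line at the mean of 2 embryos. The females lay between the male groups, at 0.965 (*Samd4*), 1.19 (*Ccnb1ip1*), 0.995 (*Ang*) and 1.05 (*Rnase4*) times the male midpoint.

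By father over all 8 embryos, none of the 9 probes was called by limma at an adjusted p below 0.01 and a 2-fold change, compared with 1.26% of tested probes. An unadjusted p below 0.05 was found for 7 of the 9 and for 10342 of all 29732 tested probes. *Samd4* was -4.51 ± 2.47 in HOM father embryos and -2.0 ± 0.66 in HET father embryos (mean ± SD, n = 4), a change of -2.51 with an SE of 1.12 and an adjusted p of 0.158. *Ccnb1ip1* was -1.62 ± 0.38 and -3.69 ± 1.98, a change of 2.07 (SE 0.89, adjusted p = 0.142). The SDs show that the spread lay mostly within 1 father group in each gene, the HOM father group for *Samd4* and the HET father group for *Ccnb1ip1*. The lowest adjusted p of the 9 was that of *Osgep* A_55_P2061701, 0.0177, with a change of -0.42 (SE 0.09). *Ang* changed by -0.85 (SE 0.23, adjusted p = 0.0346). The father groups did not overlap for *Osgep* A_55_P2061701, *Apex1* and *Ang*, 3 of the 9, compared with 27.1% of all tested probes. *Parp2* had a change of 0.07 (SE 0.08, adjusted p = 0.570), and of -0.13 under median scaling, a scaling that took the median over all tested probes from -0.02 to -0.22.

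By sex, with father as a covariate, none of the 9 probes was called either, compared with 0.0605% of tested probes, and none had an unadjusted p below 0.05. Female minus male differences ran from 0.02 for *Parp2* to 1.56 (SE 1.04) for *Samd4*, with adjusted p between 0.914 and 0.980. On the HOM father slide both males lay below both females for *Samd4* and *Ang* and above them for *Ccnb1ip1* and *Rnase4*. On the HET father slide each of these positions was reversed. The difference between sexes therefore had opposite signs on the 2 slides, over which the fit by sex averages.

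Within males, where 2 embryos of HOM fathers were set against 2 of HET fathers in a fit of all 4 groups added after the values were seen, 4 of the 9 probes were called, compared with 0.649% of tested probes. *Ang* changed by -1.44 (SE 0.09) and *Rnase4* by 1.43 (SE 0.08). The fitted values of *Samd4* (-5.18) and *Ccnb1ip1* (4.11) stand against males in which the probe was not well above background. The sizes of these 2 differences are not established. Within females none was called, compared with 0.195% of tested probes. An unadjusted p below 0.05 was found for 2 of the 9 and for 6809 of the 29732 tested probes. The female changes ran from -0.26 (*Ang*) to 0.17 (*Samd4*). The 4 calls are a description, because the genes were chosen on these arrays, and they were lost, at adjusted p between 0.010 and 0.0352, when any single array other than HET father replicate 1 or 3 was left out. With a normexp background correction the fitted values in males were -2.66 for *Samd4* instead of -5.18 and 2.57 for *Ccnb1ip1* instead of 4.11.

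The order was then followed along the chromosome, taking for each gene the tested probe with the highest mean. Of 518 tested chromosome 14 genes 33 (6.37%) had the females between the males of the 2 fathers. Without the 8 genes it was 28 of 510 (5.49%), and in 22 of these 28 the HOM father males were the lowest. Chromosome 5 came next with 21 of 877 genes (2.39%), and none of the other chromosomes with at least 100 tested genes exceeded 1.53%. Over all other chromosomes together the share was 1.19% (168 of 14080 genes).

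**Figure D3:**
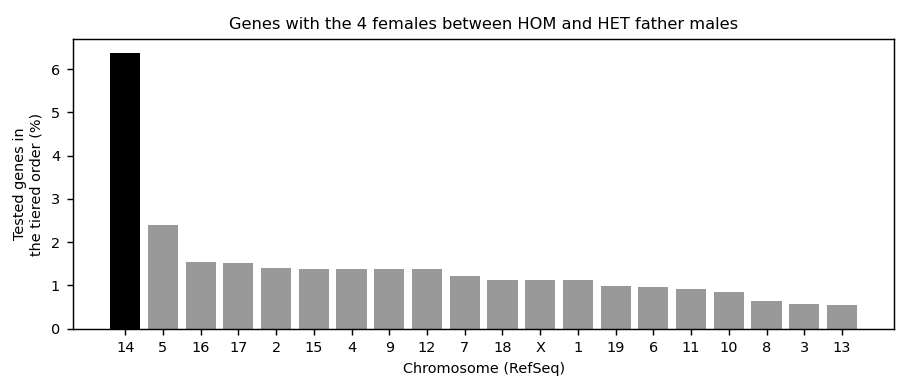
Percent of tested genes (y axis, from 0) on each chromosome with at least 100 tested genes (x axis, sorted) whose 4 females lay between the HOM father males and the HET father males. Chromosome 14 (black) stood at 6.37%, chromosome 5 at 2.39% and the others at 1.53% or less.

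The genes with this order were gathered in parts of chromosome 14. Between *Samd4* and *Rnase4* lay 116 other annotated genes, of which 56 were on the array and 23 were tested, and 7 of the 23 (30.4%) had the order. These were *Socs4*, *Mapk1ip1l*, *Peli2*, *Ap5m1*, *ccdc198*, *Pnp* and *Pnp2*, and *Mapk1ip1l* alone had the HOM father males highest. Among the 7 tested genes within 15 genes of the outermost pair it was *Ang2* only, and in the rest of the chromosome 20 of 480 (4.17%). In successive windows of 50 tested genes the count was 13 from *Armh4* to *Bcl2l2*, which held 7 of the 8 genes, 8 from *Ppp3cc* to *Vwa8* and 7 from *Shld2* to *ccdc198*, which held *Samd4*. The remaining windows had between 0 and 2. Among the 13 were *Ccnb1ip1*, *Tep1*, *Ang* and *Rnase4*, and among the 7 was *Samd4*. Part of these 2 counts thus came with the choice of the genes.

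**Figure D4:**
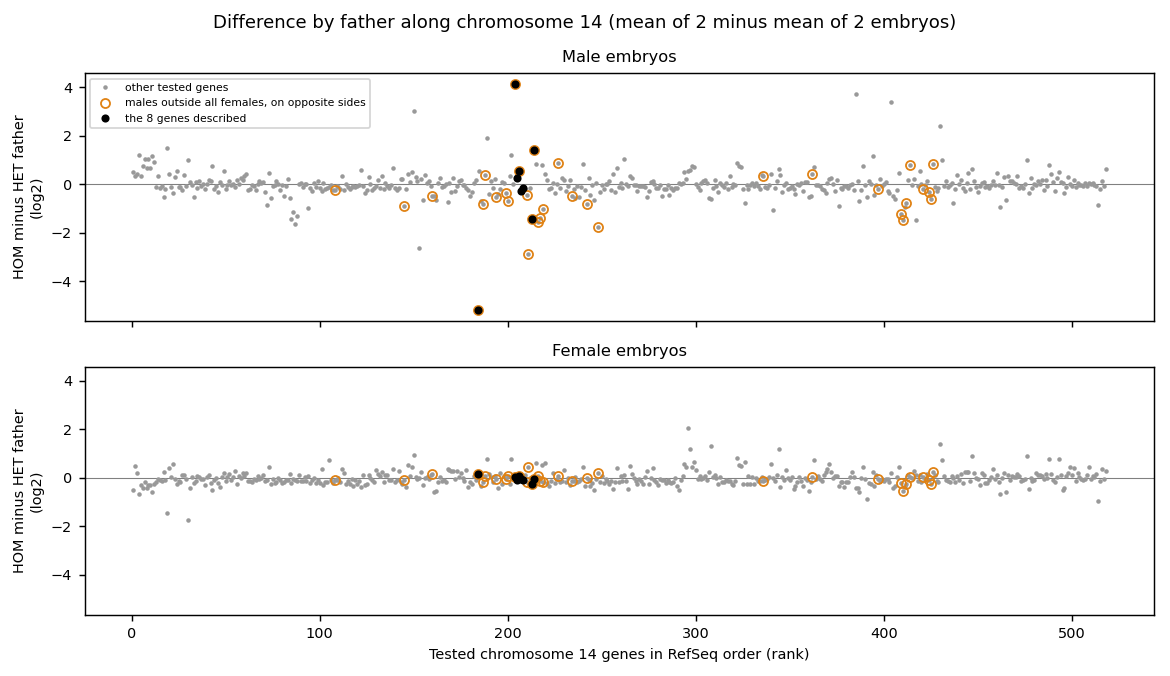
HOM minus HET father difference in log2 signal (y axis) in males (top) and females (bottom), each from the mean of 2 embryos, for 518 tested genes in RefSeq order along chromosome 14 (x axis, rank). The 8 genes are black and genes with the females between the males are ringed; among the 8 the fitted male differences ran from -5.18 to 4.11.

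Neighbouring genes differed from one another. *Pnp2*, a purine nucleoside phosphorylase gene, was the only other gene between or within 15 genes of the 8 with an empty interval of at least 1 (1.53). It had -4.70 and -4.44 in HOM father females, -6.82 and -6.85 in HOM father males, -4.70 and -5.29 in HET father females and -3.86 and -4.03 in HET father males, in the order of *Samd4*. It was well above background on 5 arrays and on neither of the HOM father males, so that the size of this interval is not established. In contrast *Ttc5*, directly before *Ccnb1ip1*, did not have the order. It ranged over 0.60, with an SD over the 8 arrays of 0.19, compared with a median of 0.17 over all tested probes. *Pip4p1*, directly after *Apex1*, ranged over 0.49 without the order, which *Apex1* also lacked. *Cgrrf1*, 2 genes before *Samd4*, ranged over 0.34, and *Eddm3b*, directly after *Rnase4*, over 2.10, again without the order. The order was thus found in some genes and not in *Ttc5* or *Eddm3b* directly beside them, and the adjacent *Ang* and *Rnase4* had it in opposite directions.

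*Ang2* and *Ang4*, the tested paralogues of *Ang*, had its order, and *Ang5* and *Ang6* were not on the array. *Ang2* had -2.15 and -2.19 in HOM father females, -2.87 and -2.96 in HOM father males, -2.33 and -2.14 in HET father females and -1.55 and -1.19 in HET father males. *Ang4* had -1.13 and -1.25, -1.92 and -2.09, -1.09 and -1.05, and -0.64 and -0.60. The HOM father males were the lowest and the HET father males the highest for both, with male changes of -1.55 (SE 0.14) and -1.39 (SE 0.09), close to that of *Ang*. The probe sequences were not used here, so it was not tested whether a single message reached all these probes.

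For the pathways of the 8 genes, lists of other members were counted in the same fits. Of 19 other genes on the list for the RNase A superfamily 16 were on the array and 7 were tested. The 7 include *Rnh1*, which encodes the ribonuclease inhibitor and is not itself a member of the family. None was called by father, compared with 1.26% of tested probes. Within males 2 were called, compared with 0.649% of tested probes. These were *Ang2* and *Ang4*, both lower in HOM father embryos. The largest father changes were those of *Ang4* (-0.76, SE 0.24), *Ang2* (-0.74, SE 0.30) and *Ear6*, an eosinophil-associated ribonuclease (0.64, SE 0.13). *Ear6* had the lowest adjusted p of the 3, 0.0120, with a change below 2-fold. The median father change of the list was -0.07, which was the value of *Rnh1*, compared with -0.02 over all tested probes.

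None of the 23 tested genes of base excision and single-strand break repair was called in any of the 4 comparisons, and their median change by father was -0.09. The largest changes were those of *Mbd4*, a thymine glycosylase (-0.35, SE 0.08), *Nthl1* (-0.32, SE 0.12) and *Mutyh* (-0.26, SE 0.06), the latter 2 also glycosylases. The 4 tested genes of KEOPS and of its tRNA modification had no call, with a median of -0.13 and values of -0.30 for *Tprkb*, -0.18 for *Gon7* and 0.13 for *Lage3*. The 14 tested genes of telomerase and the vault particle had none, with a median of -0.08 and values of 0.43 for *Pot1a*, -0.25 for *Nop10* and 0.20 for *Dkc1*. The order of the females between the males was found in none of these lists.

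Of 15 genes of meiotic crossover formation 6 were tested, the others having been too dim or off the array, and none was called by father, by sex or within males. Within females 1 of the 6 was called, compared with 0.195% of tested probes. This was *Rec114*, a gene of meiotic break formation. It had -2.32 and -2.29 in HOM father females, -2.73 and -2.77 in HOM father males, -3.43 and -3.38 in HET father females and -2.42 and -2.40 in HET father males. The HET father females were the low pair, so that its levels did not follow those of *Ccnb1ip1*. The 18 tested genes of the Smaug and CCR4-NOT list, the deadenylation machinery that Smaug proteins recruit, had no call. The largest changes by father there were those of *Nanos3* (0.43, SE 0.06, adjusted p = 0.00178), *Nanos1* (-0.39, SE 0.29) and *Pum2* (-0.29, SE 0.06), all below 2-fold.

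For each gene the 3 other genes with the highest Pearson correlation over the 8 embryos were taken. These 24 places went to 23 genes with r between 0.928 and 0.993, and 9 of the 23 were on chromosome 14, which holds 3.55% of the tested named genes. The embryos share father, sex and slide, so these values describe likeness only. *Ang* was most like *Mettl17* (r = 0.993), *Ang4* (0.991) and *Ap5m1* (0.990), all on chromosome 14. *Rnase4* was most like *Taz* on the X chromosome (0.991), *Supt16* on chromosome 14 (0.975) and *Fbxo24* on chromosome 5 (0.973). *Ccnb1ip1* was most like *Fbxo24* (0.984), *Phyhip* on chromosome 14 (0.981) and *Cript* on chromosome 17 (0.977). Like *Ccnb1ip1*, *Fbxo24* and *Phyhip* were not well above background in either HET father male, so their correlations rest in part on values near background.

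*Samd4* was most like *Hscb* on chromosome 5 (0.973), *Pnp2* (0.973) and *Ap1m2* on chromosome 9 (0.969). Both *Samd4* and *Pnp2* were not well above background in the HOM father males. *Mettl17*, a mitochondrial ribosome factor, had -0.27 and -0.23 in HOM father females, -0.79 and -0.81 in HOM father males, -0.10 and -0.03 in HET father females and 0.25 and 0.16 in HET father males. *Supt16*, a subunit of the histone chaperone FACT, had 0.14 and 0.31, 0.55 and 0.46, 0.16 and 0.18, and -0.38 and -0.37, the opposite direction. The 3 genes most like *Parp2* (*Ephb4*, *Ebpl* and *Midn*), *Tep1* (*Zfp438*, *Mtif2* and *Tsn*), *Osgep* (*Ssh1*, *Cln6* and *Plac9a*) and *Apex1* (*Golph3*, *Gnl3* and *Yif1a*) were mostly on other chromosomes, with *Ebpl*, *Plac9a* and *Gnl3* on chromosome 14.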

How the data were processed

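RNA of each embryo was DNase treated, 0.2 µg was amplified to Cy3-labelled cRNA and hybridised to 1 Agilent array. Per the study's methods only RNA with an integrity number above 8 was used. The deposited scanner tables hold linear intensities, which the authors made with Agilent Feature Extraction 11.0.1.1 (per the submitters' processing notes) by subtracting background and removing spatial trends, without scaling between arrays. The deposited flags of each spot are other values, 0 or 1. The authors' series table repeated these intensities, within 0.497%.

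From these, spots carrying an outlier flag were dropped (no spot was saturated), the processed signal was converted to log2, the 75th percentile of the array was subtracted and spots of 1 probe were averaged (432 probes had several). Spots of 1 probe differed by a median SD of 0.044. Probes were kept for testing when they exceeded background clearly, and the lowest 20% of their array, on 4 or more of the 8 arrays, and counts over embryo orders use the 29706 probes with a value on every array. limma 3.58.1 in R 4.3.3 (lmFit and eBayes, two-sided) was used with Benjamini-Hochberg adjustment over all tested probes. The fit by father had no covariate and the fit by sex had father as a covariate. Calls needed an adjusted p below 0.01 and a 2-fold change, the limits of the study's methods. The p-values measure the spread between these embryos, some of which share a sire. The number of arrays limits the precision. For a probe not well above background on either array of a group, the size of a difference is not established. Its fold difference was computed against the lowest signal well above background on each array or its own signal, whichever was higher.

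Probes were named through a RefSeq table of assembly GRCm38.p6, which matched 27235 probes and was used for names and gene order only, since the array design is of build mm9. Every probe of the 8 genes is reported. Other genes named are neighbours with an empty interval of at least 1, the nearest tested neighbours without one, the 3 genes most like each gene, and up to 3 genes of each list with the largest father change. Genes with the shared order, *Mettl17*, *Supt16*, the paralogues of *Ang* and *Rec114* were named after their values were seen. The 8 genes and the gene lists were chosen with earlier results of these data known, and the order of females between males and the within-sex fits were added after seeing the values. Alternatives were other scalings, normexp on the median and background signals, other filters, the series table, blocks, covariates and leaving out each array. Same-numbered embryos did not deviate together (correlations 0.189, -0.086, -0.132 and 0.146), so replicate numbers were not taken as pairs. The within-sex fits by father were tested on simulated data.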

Additional observations from a re-analysis of the deposited data

Results flagged for a closer look

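The father effect differed between males and females for 3 of the 9 probes, taken at an adjusted p below 0.05 in limma's test of the difference. For *Samd4* (A_66_P130813) the male minus female difference of the father effect was -5.34 (SE 0.39, adjusted p = 0.0303). It was 4.07 (SE 0.18, adjusted p = 0.0178) for *Ccnb1ip1* (A_55_P1986208) and 1.497 (SE 0.11, adjusted p = 0.0314) for *Rnase4* (A_51_P237383). For *Samd4* and *Ccnb1ip1* 1 male pair was not well above background, so the sizes are fitted values and not measured ones. No tested probe passed the limits used for calls in this test, although 1342 had an unadjusted p below 0.05, and 19 had an adjusted p below 0.05. With an intensity trend and robust variance 11 probes were called, these 3 among them, and with normexp 3 were called, *Ccnb1ip1* among them. The genes were picked for their spread over these arrays, so the values are no independent evidence, and each sex and father combination had 2 embryos, both HOM father males sharing an identifier number.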

How the results depend on the processing

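Of the changes by father only that of *Parp2* turned, from 0.07 to -0.13 under median scaling, and the 9 probes had no call by father or by sex under any alternative. The replicate block gave 232 calls among all tested probes by father instead of 376 and 2 by sex instead of 18. By father normexp gave 144, and requiring a signal well above background on all arrays gave 228, and 5 by sex. Within males 193 tested probes were called, but 63 with the array row as a block, 110 with median scaling and 0 without the filter, and 0 to 109 with an array left out. Of the 9 probes 4 were called within males, 0 without the filter, 2 with a signal well above background on all arrays, and 0 to 4 with an array left out. In the test of the father effect between sexes 0 tested probes were called, 3 with normexp and 11 with trend and robust variance, and 0, 1 and 3 of the 9 probes. An empty interval of at least 1 was present in 2 of the 9 probes, of at least 0.5 in 4, and in 0 once probes had to be well above background on all arrays, which removes *Samd4* and *Ccnb1ip1*. The largest interval of *Samd4* was 1.60 with normexp instead of 3.54. The cause of these shifts was not tested, apart from the removal just given. Normexp used the median spot signal, as the mean signal was not used here.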

Other observations

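A second pattern was present on chromosome 14, in *Cdadc1*, a cytidine deaminase family gene chosen after its values were seen. Its probe A_55_P2184541 had 1.39 and 1.57 in HOM father females, 0.77 and 0.72 in HOM father males, 0.84 and 0.87 in HET father females and 1.60 and 1.42 in HET father males. The other probe, A_55_P1984366, had -0.61 and -0.60, -1.24 and -1.43, -1.27 and -1.29, and -0.50 and -0.67. On both probes the same 4 embryos were low, the HOM father males and the HET father females, with empty intervals of 0.53 and 0.57. The HET father females thus sat with the HOM father males for *Cdadc1*, whereas for *Ang* and *Rnase4* they lay beside the HOM father females.

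*Slc7a8*, an amino acid transporter gene of chromosome 14, had 0.78 and 0.77 in HOM father females, -0.60 and -0.28 in HOM father males, 0.49 and 0.67 in HET father females and 1.22 and 1.42 in HET father males. It had the order of *Ang*, well above background on all 8 arrays. Among the 20 probes with the highest correlation to *Ccnb1ip1*, 11 were on chromosome 5, of which 9 were named for a single non-coding interval, and 4 were on chromosome 14. *Rnase4* had 10 on chromosome 5, 9 of them in 1 interval, and *Parp2* had 9, 3 of them in 1 interval. Each of the remaining genes had 1 to 5 there. Chromosome 5 holds 6.01% of the tested named genes, but that share counts genes and the lists of 20 count probes. Several probes of 1 interval count separately in these lists, so the share is not a like background for them.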
